A study of Mus musculus with 6 samples.

Results

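The genes described here are 10 genes of the hypoxia pathway around HIF1, the transcription factor that lets cells adjust to low oxygen. They are Hif1a, which encodes its oxygen-regulated subunit, its regulators Egln1, Egln3 and Vhl, and the target genes Bnip3, Bnip3l, Ankrd37, Vegfa, Ero1a and P4ha1. They were taken by gene name from a table of 57180 genes, and each of the 10 names matched a single row. They were selected on their TPM values in this same comparison, with the difference between the groups already known, so their own values are given as a description, without a test. The table holds RNA-seq of lymphocytes isolated from tumors of mice bearing Hepa1-6, a mouse hepatoma cell line. In 3 libraries (Mock sgRNA, genotype labelled Mock) the mice had received a mock guide RNA, and in 3 libraries (SLC43A2 sgRNA, genotype labelled SLC43A2 knockdown) a guide directed at SLC43A2, which carries large neutral amino acids such as methionine across the cell membrane. All mice of both groups received, by tail vein, the TREND delivery system with plasmids for CasRx, a CRISPR nuclease that cuts RNA. The sources used here do not give the strain, sex or age of the mice, the dose, or whether each library came from a separate mouse. The p-values therefore measure the spread between these libraries, which may be technical.

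In well-oxygenated cells the prolyl hydroxylases EGLN1, EGLN2 and EGLN3 mark the HIF1A protein, and VHL, the substrate receptor of a ubiquitin ligase, then directs its destruction. When oxygen is short, HIF1A escapes this, pairs with ARNT and binds short DNA motifs called hypoxia response elements. Much of this control acts on the protein, which an RNA measurement does not show. In T cells HIF1 is best known for driving glycolysis, and antigen receptor and cytokine signals can raise HIF1A in T cells without hypoxia. EGLN3 is itself a classic HIF target and so forms a negative feedback.

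The values are TPM, each gene's length-adjusted share of a library scaled to the same sum, so the depth of each library is unknown. Tests used limma on log2(TPM + 1) over the 13759 genes with a mean of at least 1 TPM, and a gene passed at a Benjamini-Hochberg adjusted p below 0.05. In all, 45.1% of these genes passed, 22.8% as higher and 22.2% as lower in SLC43A2 sgRNA, so a change by itself was common in this comparison. The count of higher genes, 3139, was 1936 without SLC43A2 sgRNA replicate 1 and 1854 without replicate 3. The higher genes were 50.6% of all that passed, and 66.6% with libraries scaled to T cell marker transcripts, a scaling chosen after seeing the data. The targeted gene Slc43a2 was low and did not pass, with means of 5.22 ± 1.30 TPM under the mock guide and 3.35 ± 0.885 TPM under its own guide (SD, n = 3 each; limma adjusted p = 0.113). Protein-coding transcripts made up 76.9% to 79.1% of the Mock sgRNA and 86.3% to 86.9% of the SLC43A2 sgRNA libraries. The Y-linked Eif2s3y stood at 51.4 and 1.03 TPM in the respective groups, so the sex of the cells may differ between the groups and cannot be told apart from the guide.

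The DNA around the starts of these genes shows which of them carry the letters that HIF1 can bind. The core of the hypoxia response element is ACGTG or GCGTG, and it was searched on both strands of RefSeq promoter windows (GRCm38.p6), which run from 250 bases before to 50 after a gene's start. RefSeq's starts are used, which need not be the outermost annotated start of a gene. Those of Hif1a, Ankrd37 and the second start of Vegfa lie furthest inside the gene spans given with the levels. Those of Ero1a, Egln1, Vhl and Bnip3 also lie inside their spans, by fewer bases. Windows were found for 9 of the 10 genes, with 2 for Vegfa, and none was used for Bnip3l. At least 1 match stood in 8 of these 10 windows, against 43.8% of all 32851 windows and 61.9% of the 11334 windows of genes tested here. More than 1 match stood in 70.0% of the members' windows and in 33.7% of those of the genes tested. The members' windows were also richer in G and C, with a median of 69.2% against 60.3%, and a motif that holds CG is more frequent in such DNA. Bnip3 had the most matches, 5, of which 2 read the same letters CACGTG from opposite strands. Of the 3 matches of Hif1a, 2 likewise read CACGTG from opposite strands. These letters are also those of the E-box that MYC binds. Hif1a and, at its downstream start, Vegfa also held a match and more than doubled in mean TPM, but their windows are not shown. The windows of 5 other genes with a match and a more than doubled mean TPM, from a single match to the most, are shown. They read 5′ to 3′ on the gene's strand, with matches on either strand in capitals.
Bnip3 (chr7:138909457-138909756, minus strand): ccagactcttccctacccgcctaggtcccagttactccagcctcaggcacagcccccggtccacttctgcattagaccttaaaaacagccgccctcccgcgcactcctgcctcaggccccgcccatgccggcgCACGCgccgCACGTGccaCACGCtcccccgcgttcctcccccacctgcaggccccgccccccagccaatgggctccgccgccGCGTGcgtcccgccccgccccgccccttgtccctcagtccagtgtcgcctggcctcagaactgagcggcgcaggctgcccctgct
Egln3 (chr12:54203825-54204124, minus strand): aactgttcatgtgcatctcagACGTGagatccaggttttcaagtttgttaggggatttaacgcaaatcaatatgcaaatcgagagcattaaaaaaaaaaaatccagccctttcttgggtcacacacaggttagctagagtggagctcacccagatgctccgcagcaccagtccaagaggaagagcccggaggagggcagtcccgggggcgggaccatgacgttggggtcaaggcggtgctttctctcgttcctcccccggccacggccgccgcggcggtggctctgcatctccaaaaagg
Ero1a (chr14:45318523-45318822, minus strand): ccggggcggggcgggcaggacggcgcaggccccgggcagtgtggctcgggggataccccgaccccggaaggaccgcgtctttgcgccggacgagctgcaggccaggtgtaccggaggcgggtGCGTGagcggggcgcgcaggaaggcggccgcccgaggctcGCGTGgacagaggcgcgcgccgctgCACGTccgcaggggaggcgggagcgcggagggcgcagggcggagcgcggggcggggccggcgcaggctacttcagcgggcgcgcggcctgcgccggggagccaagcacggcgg
P4ha1 (chr10:59323046-59323345, plus strand): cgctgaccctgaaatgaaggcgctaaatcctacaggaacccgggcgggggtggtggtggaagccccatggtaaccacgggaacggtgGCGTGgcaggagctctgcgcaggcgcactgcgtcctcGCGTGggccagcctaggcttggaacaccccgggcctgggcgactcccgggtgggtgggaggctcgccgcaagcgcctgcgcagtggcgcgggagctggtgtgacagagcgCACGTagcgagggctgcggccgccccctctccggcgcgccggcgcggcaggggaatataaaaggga
Ankrd37 (chr8:45999801-46000100, minus strand): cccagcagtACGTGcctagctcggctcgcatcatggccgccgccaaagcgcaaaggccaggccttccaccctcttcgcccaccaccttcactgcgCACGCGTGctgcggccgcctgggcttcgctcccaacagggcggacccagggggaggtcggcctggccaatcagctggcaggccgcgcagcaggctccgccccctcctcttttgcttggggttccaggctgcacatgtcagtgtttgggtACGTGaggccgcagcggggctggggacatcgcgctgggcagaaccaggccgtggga
The matches of Bnip3 lay between 117 and 35 bases before the start, and Ankrd37 had a match 6 bases before it. Egln3 had a single match, 229 bases before its start. Vhl had none, and of the starts of Vegfa the upstream one had none and the downstream one had 2. The window of that downstream start (chr17:46025114-46025413) lies wholly inside the span of Vegfa, 46016993 to 46032369. Its matches thus stand within the gene as read from the upstream start, yet it is counted above among the windows with a match. A match is a description of the letters, not a shown binding site, and HIF1 is also known to act from sites outside such windows.

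**Figure D1:**
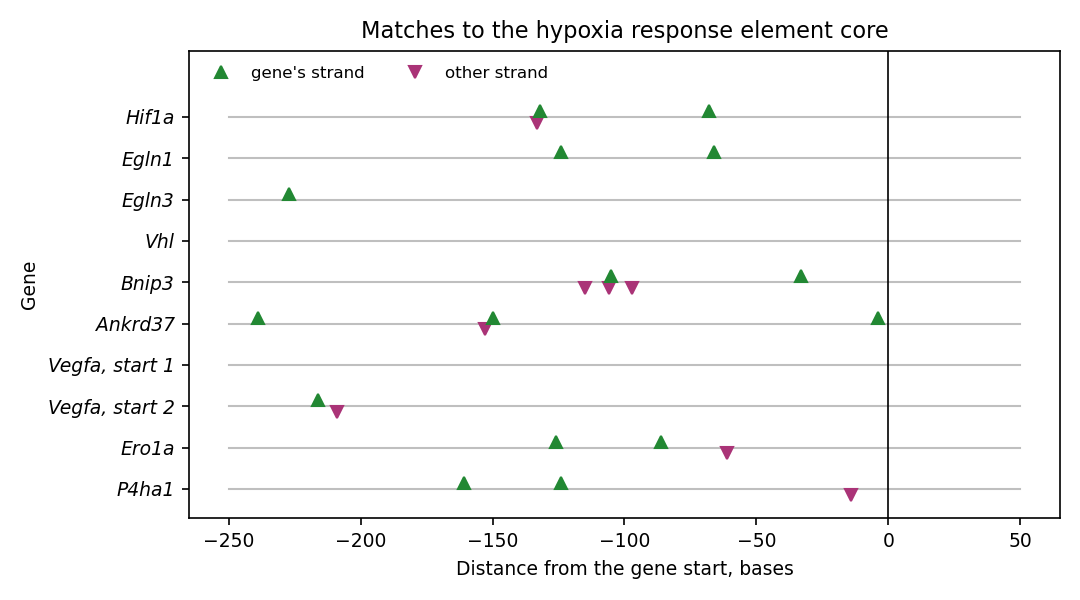
Positions of matches to the hypoxia response element core in RefSeq promoter windows of 9 genes (grey lines; Vegfa has 2 starts), with distance from the gene start in bases on the x axis and upward and downward triangles for matches on the gene's own and the other strand. All drawn matches lie before the start, 5 of them in Bnip3 and none in Vhl or at the upstream start of Vegfa.

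All 10 genes were detected in every library, and all 10 had a higher mean in SLC43A2 sgRNA than in Mock sgRNA. The groups did not overlap for 9 of them, Bnip3l being the exception, beside 28.7% of all genes tested that lay wholly higher in SLC43A2 sgRNA, 57.0% that did not overlap in either direction, and 45.1% that passed the test. The mean TPM was at least doubled for 7 of the 10, against 11.9% of all genes tested. The differences on the log2(TPM + 1) scale ran from 0.41 to 2.96 with a median of 1.57, while the median over all genes tested was 0.03. Since the genes were chosen with this contrast known, nothing is read from these counts. Each gene's level is from bulk RNA of a mixed cell preparation, in which fewer cells of a type and less RNA per cell cannot be told apart.

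**Figure D2:**
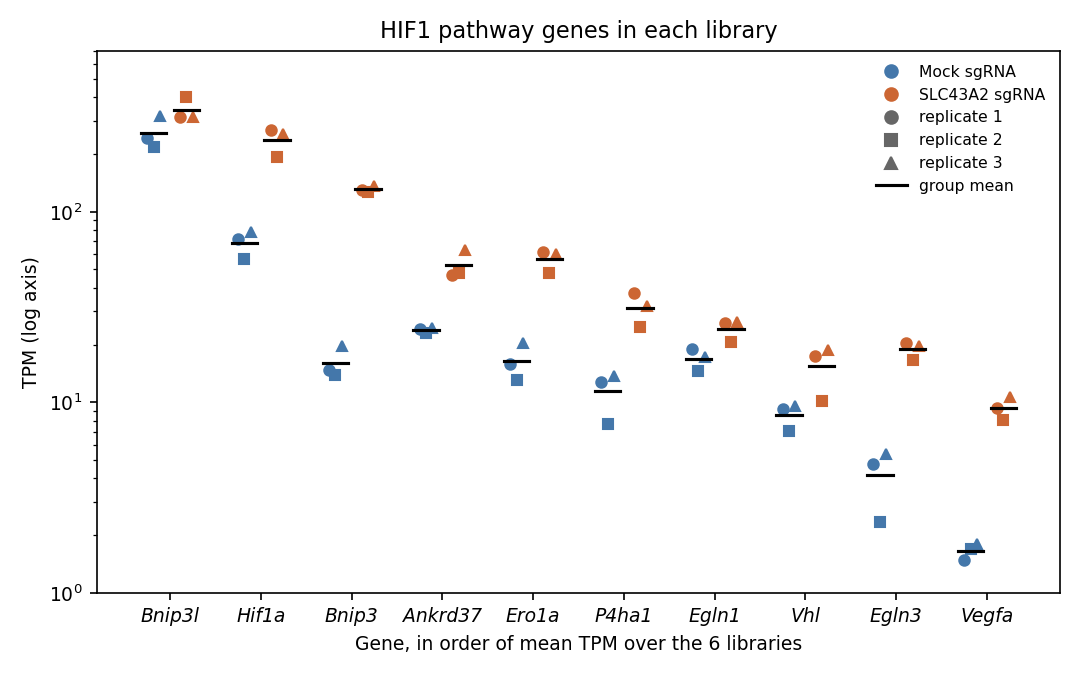
TPM (log axis) of the 10 genes in each of the 6 libraries, with symbols for the replicate, colors for the group and black bars for group means. The SLC43A2 sgRNA libraries lie above all Mock sgRNA libraries for every gene but Bnip3l, whose highest Mock sgRNA value (317 TPM) lies above 2 SLC43A2 sgRNA values.

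In Mock sgRNA the most abundant of the 10 was Bnip3l, at 260 ± 51.4 TPM, followed by Hif1a at 68.9 ± 11.0 TPM (SD, n = 3, here and in all pairs of means). Ankrd37 came next at 24.0 ± 0.731 TPM. Egln1, Ero1a and Bnip3 stood together at 16.9 ± 2.24, 16.5 ± 3.74 and 16.2 ± 3.20 TPM, and their ranges overlapped. P4ha1 and Vhl, with overlapping ranges, followed, then Egln3, and Vegfa was lowest at 1.66 ± 0.158 TPM. In SLC43A2 sgRNA Bnip3 came right after Hif1a, above Ero1a and Ankrd37, Egln1 came after P4ha1, and again Vegfa was lowest. There the ranges of neighbours overlapped between Ero1a and Ankrd37, between P4ha1 and Egln1, between Egln3 and Vhl, and between Vhl and Vegfa. Within the groups the libraries differed in the same sense for most of these genes: Mock sgRNA replicate 2 held the lowest value of its group for 9 of the 10 and SLC43A2 sgRNA replicate 2 for 8 of the 10. The share of all genes tested that were lowest in these libraries was not determined, so nothing particular to the 10 genes is read from this.

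Hif1a itself (ENSMUSG00000021109; GRCm38 chromosome 12, 73901375 to 73947530, plus strand) stood at 71.7, 56.7 and 78.2 TPM across Mock sgRNA (replicates 1, 2 and 3, an order kept throughout), against 269, 193 and 255 TPM across SLC43A2 sgRNA. The lowest SLC43A2 sgRNA library was 2.47 times the highest Mock sgRNA library. The means, 68.9 ± 11.0 and 239 ± 40.3 TPM (SD, n = 3 each), differed 3.47-fold, and the log2 difference was 1.78 (SE 0.18). Its partner Arnt stood at 9.74 ± 0.618 and 8.08 ± 1.12 TPM and did not pass (log2 difference -0.25, SE 0.15, limma adjusted p = 0.225). Hif1a transcripts per Arnt transcript, as a ratio of TPM, were 7.09, 5.62 and 8.66 in Mock sgRNA and 32.0, 28.3 and 28.3 in SLC43A2 sgRNA. Epas1, which encodes the related subunit HIF2A, stayed under 0.7 TPM in all 6 libraries and was not tested. Exons of Hif1a share 330 of 5896 bases (5.60%) with Gm15283 on the opposite strand, which stood at 0.64 to 2.52 TPM. They also share 148 bases (2.51%) with Gm49321 on the same strand, for which there are no values. Strand cannot separate reads of that stretch.

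The prolyl hydroxylase gene Egln3 (chromosome 12, 54178981 to 54203860, minus strand) stood at 4.74, 2.34 and 5.33 TPM across Mock sgRNA, against 20.5, 16.8 and 19.8 TPM across SLC43A2 sgRNA. No library of one group reached the range of the other, and the lowest SLC43A2 sgRNA value was 3.14 times the highest Mock sgRNA value. The means were 4.14 ± 1.58 and 19.0 ± 1.99 TPM (4.60-fold; log2 difference 2.01, SE 0.26). Egln1 (chromosome 8, 124908587 to 124949324, minus strand), whose product is the main hydroxylase of HIF1A in most cells, stood at 19.0, 14.6 and 17.2 TPM and at 26.1, 20.7 and 26.3 TPM in the respective groups. Its difference was small, 1.44-fold, and the closest values of the groups were 19.0 and 20.7 TPM (log2 difference 0.50, SE 0.16). Egln2, the third enzyme of the family, stood at 14.1 ± 2.68 and 13.1 ± 1.29 TPM and did not pass (limma adjusted p = 0.71), with a log2 difference of -0.09 (SE 0.18) that was 0.03 without Mock sgRNA replicate 3 and 0.14 with scaling to T cell markers. Of the summed TPM of the 3 hydroxylase genes, Egln3 made up 11.5% ± 2.78 in Mock sgRNA and 33.7% ± 0.474 in SLC43A2 sgRNA, and Egln2 went from 40.0% ± 2.18 to 23.2% ± 0.482. The share of Egln1 overlapped between the groups, at 48.5% ± 3.99 and 43.1% ± 0.953.

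Vhl (chromosome 6, 113623959 to 113631633, plus strand) stood at 9.25, 7.04 and 9.54 TPM across Mock sgRNA, against 17.4, 10.2 and 18.9 TPM across SLC43A2 sgRNA. SLC43A2 sgRNA replicate 2, at 10.2 TPM, lay just above the highest Mock sgRNA library, at 9.54 TPM, while the other two libraries of its group lay well above. The log2 difference of 0.75 (SE 0.25) was 1.00 without that library. Hif1a transcripts per Vhl transcript, as a ratio of TPM, were 7.75, 8.06 and 8.20 in Mock sgRNA and 15.5, 18.9 and 13.5 in SLC43A2 sgRNA.

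Among 15 further genes of the HIF subunits and oxygen sensing, 12 were abundant enough to test, and 3 rose, 3 fell and 6 did not pass (median log2 difference -0.15), shares near those of all genes tested. Cul2, the scaffold of the VHL ubiquitin ligase, rose from 11.7 ± 0.846 to 43.0 ± 9.84 TPM (log2 difference 1.77, SE 0.20, limma adjusted p = 7.9e-04). Siah2, a ubiquitin ligase that targets prolyl hydroxylases, rose by 0.87, and Eloc, the elongin subunit that VHL contacts, by 0.73 on the log2 scale (limma adjusted p = 0.0077 and 0.014). The call of Eloc was lost without Mock sgRNA replicate 1 (limma adjusted p = 0.0622) or SLC43A2 sgRNA replicate 3 (limma adjusted p = 0.0502), and with median-of-ratios scaling (limma adjusted p = 0.052) or quantile normalization; over all its alternatives the adjusted p ran from 0.0052 to 0.0844. The transcripts of HIF1's coactivators were lower: Crebbp, which encodes CBP, fell from 38.7 to 8.97 TPM (log2 difference -2.0, SE 0.17, limma adjusted p = 2.8e-04), and Ep300, which encodes p300, changed by -0.81. Cited2, which competes with HIF1A for CBP and p300, changed by -1.05 (limma adjusted p = 0.0138 for Ep300 and 0.0077 for Cited2). The call of Ep300 was lost without Mock sgRNA replicate 1 (limma adjusted p = 0.0621) or SLC43A2 sgRNA replicate 3 (limma adjusted p = 0.0635); over all its alternatives the lowest adjusted p was 0.0042. The asparagine hydroxylase gene Hif1an, whose product blocks coactivator binding, had a log2 difference of -0.43 (SE 0.18) and did not pass (limma adjusted p = 0.0943).

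Bnip3, whose product sits in the outer mitochondrial membrane and recruits the machinery of mitophagy, showed the largest difference of the 10 genes. Bnip3 (ENSMUSG00000078566; chromosome 7, 138890836 to 138909519, minus strand) stood at 14.9, 13.8 and 19.8 TPM across Mock sgRNA, against 129.6, 127.5 and 135.8 TPM across SLC43A2 sgRNA. The SLC43A2 sgRNA values lay within a narrow range and the lowest was 6.43 times the highest Mock sgRNA value. The means of 16.2 ± 3.20 and 131 ± 4.30 TPM differed 8.10-fold (log2 difference 2.96, SE 0.16). Of its 2265 exon bases, 504 (22.3%) lie opposite exons of Gm45507, which stood at no more than 0.38 TPM in any library.

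Bnip3l encodes NIX, the close relative of BNIP3 that clears mitochondria from maturing red blood cells. Bnip3l (chromosome 14, 66985239 to 67008877, minus strand) stood at 243, 218 and 317 TPM across Mock sgRNA, against 315, 399 and 316 TPM across SLC43A2 sgRNA. Mock sgRNA replicate 3 lay slightly above SLC43A2 sgRNA replicates 1 and 3, so the groups overlapped, and the means of 260 ± 51.4 and 343 ± 48.1 TPM differed 1.32-fold (log2 difference 0.41, SE 0.17). The difference was 0.11 after quantile normalization. Bnip3 thus made up 5.87% ± 0.101 of the summed TPM of both genes in Mock sgRNA and 27.8% ± 3.14 in SLC43A2 sgRNA. The ratio of Bnip3l to Bnip3 TPM was 16.4, 15.8 and 16.0 in the Mock sgRNA libraries and 2.43, 3.13 and 2.33 in the SLC43A2 sgRNA libraries. Red blood cell precursors express Bnip3l, and 5 of the 7 tested erythroid markers (of 8) fell, from a summed 425 to 459 TPM across Mock sgRNA down to 15.2 to 18.2 TPM across SLC43A2 sgRNA; their part in the values of Bnip3l was not tested.

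**Figure D3:**
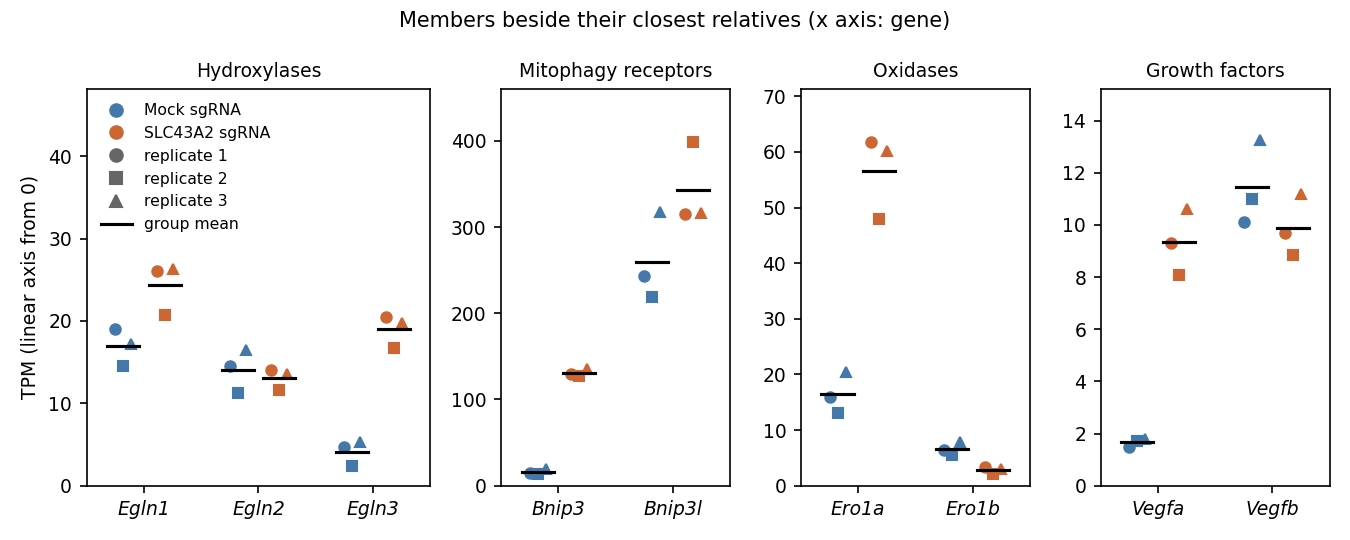
TPM (linear axes from 0) of members beside their closest relatives in each library, with symbols for the replicate, colors for the group and black bars for group means. Egln3, Bnip3, Ero1a and Vegfa are higher in all SLC43A2 sgRNA libraries, while the groups overlap for Egln2, Bnip3l and Vegfb and Ero1b is lower in SLC43A2 sgRNA.

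Of 17 other mitophagy receptors, adaptors and turnover factors, 16 were tested; 4 rose (25.0%, a share near the 22.8% of all genes tested), 0 fell and 12 did not pass with limma (median log2 difference 0.08). Gabarapl1, a relative of LC3 that links cargo receptors to autophagosomes, rose from 5.29 ± 1.87 to 24.1 ± 3.50 TPM (log2 difference 2.03, SE 0.26, limma adjusted p = 0.0014). Phb2, a prohibitin of the inner mitochondrial membrane, rose by 1.05, Fbxl4, part of a ubiquitin ligase that limits BNIP3 and NIX protein, by 0.65, and the adaptor gene Sqstm1 by 0.57 (limma adjusted p = 0.0045, 0.0194 and 0.0434). The receptor gene Fundc1, at 46.8 ± 0.945 and 49.5 TPM, and the kinase gene Pink1, at 22.7 and 19.1 TPM, did not pass (limma adjusted p = 0.616 and 0.404). The count of 4 fell to 2 without Mock sgRNA replicate 1 or 2 or SLC43A2 sgRNA replicate 1 or 3, and the calls of Fbxl4 and Sqstm1 were lost in each of these. Over all alternatives the limma adjusted p of Fbxl4 ran from 0.0036 to 0.0883 and that of Sqstm1, whose call was also lost under 4 other settings, quantile normalization among them, from 0.0040 to 0.138.

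Vegfa encodes the growth factor that drives blood vessel growth and is among the best known HIF targets. Vegfa (ENSMUSG00000023951; chromosome 17, 46016993 to 46032369, minus strand) was low, at 1.49, 1.70 and 1.80 TPM across Mock sgRNA, against 9.31, 8.08 and 10.6 TPM across SLC43A2 sgRNA. All SLC43A2 sgRNA libraries stood at least 4.49-fold above the highest Mock sgRNA library. The means were 1.66 ± 0.158 and 9.33 ± 1.26 TPM (5.61-fold). At so low a level the pseudocount matters: the log2 difference was 1.95 (SE 0.17) with a pseudocount of 1 and 2.41 with 0.1. Vegfb, a relative that is not under the same oxygen control, stood at 11.4 ± 1.61 and 9.90 ± 1.18 TPM and did not pass (limma adjusted p = 0.364). Vegfa thus made up 12.7% ± 0.724 of the TPM of both genes in Mock sgRNA and 48.5% ± 0.633 in SLC43A2 sgRNA.

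Of the 9 other genes of the VEGF family and its receptors, Vegfb and Nrp1 were the only ones abundant enough to test. Nrp1, the coreceptor neuropilin of VEGF and semaphorins, fell from 10.8 ± 2.11 to 1.11 ± 0.243 TPM (log2 difference -2.48, SE 0.20, limma adjusted p = 2.1e-04). The receptor genes Flt1 and Kdr stayed at or under 0.11 TPM in every library, and Flt4 was listed at 0 in all 6. Macrophages and monocytes also express Vegfa and Nrp1, and 8 of their 9 markers fell, with a summed level of 572 to 669 TPM in Mock sgRNA and 63.2 to 70.3 TPM in SLC43A2 sgRNA. Their summed level thus moved in the direction of Nrp1 and against that of Vegfa, and its part in either was not tested.

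The remaining target genes act in the endoplasmic reticulum. Ero1a, an oxidase that passes disulfide bonds to protein disulfide isomerase, stood at 16.0, 13.0 and 20.4 TPM across Mock sgRNA, against 61.8, 48.0 and 60.1 TPM across SLC43A2 sgRNA (chromosome 14, 45283087 to 45318771, minus strand). The groups lay far apart, with means of 16.5 ± 3.74 and 56.6 ± 7.56 TPM (3.44-fold; log2 difference 1.74, SE 0.19). Ero1b, the other oxidase of the family, which is not known as a HIF target, fell from 6.60 ± 1.21 to 2.81 ± 0.628 TPM (log2 difference -1.0, SE 0.20, limma adjusted p = 0.0079). The ratio of Ero1a to Ero1b TPM was 2.48 ± 0.117 in Mock sgRNA and 20.5 ± 2.09 in SLC43A2 sgRNA. Ero1b is high in plasma cells, and 4 of 6 plasma cell markers fell, from a summed 1148 to 1309 TPM down to 27.9 to 34.5 TPM; their part in the fall of Ero1b was not tested.

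P4ha1 encodes the catalytic subunit of collagen prolyl hydroxylase, which is needed for stable collagen. P4ha1 (chromosome 10, 59323296 to 59373304, plus strand) stood at 12.8, 7.73 and 13.8 TPM across Mock sgRNA, against 37.4, 24.8 and 31.9 TPM across SLC43A2 sgRNA. Replicate 2 was the lowest of each group, and even the lowest SLC43A2 sgRNA library was 1.80 times the highest Mock sgRNA library (means 11.4 ± 3.25 and 31.4 ± 6.30 TPM; log2 difference 1.40, SE 0.25). P4ha1 made up at least 89.6% of the summed TPM of P4ha1, P4ha2 and P4ha3 in every library. P4ha2 stood at 0.17, 0 and 0.36 TPM across Mock sgRNA, against 3.24, 1.40 and 3.70 TPM across SLC43A2 sgRNA, and reached the level for testing through the SLC43A2 sgRNA libraries alone. The collagen gene Col1a1 was listed at 0 in all libraries, and the 6 fibroblast markers summed to at most 0.270 TPM.

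Of 11 genes of oxidative folding and prolyl hydroxylase subunits other than Ero1a and P4ha1, 9 had a mean of at least 1 TPM, P4ha2 and Gpx7 through a single group only. Of the other 7, 3 rose (42.9%, against 22.8% of all genes tested), 1 fell and 3 did not pass (median log2 difference 0.59). Those that rose were the disulfide isomerase genes Pdia6 (1.20) and Pdia3 (1.04) and P4hb (0.96), which encodes both a disulfide isomerase and the partner subunit of P4HA1 (limma adjusted p = 0.0098, 0.0039 and 0.0029). Pdia4, at 37.8 ± 14.6 and 56.3 TPM, did not pass (limma adjusted p = 0.163).

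Ankrd37, a small ankyrin repeat gene that is a regular member of hypoxia signatures, stood at 24.4, 23.1 and 24.4 TPM across Mock sgRNA, against 46.4, 47.7 and 63.0 TPM across SLC43A2 sgRNA (chromosome 8, 45996902 to 46005707, minus strand). The Mock sgRNA libraries were nearly level and all SLC43A2 sgRNA libraries lay at least 1.90-fold above them (means 24.0 ± 0.731 and 52.4 ± 9.26 TPM; log2 difference 1.08, SE 0.15). Its level is uncertain in one respect: 349 of its 1539 exon bases (22.7%) lie opposite exons of Lrp2bp and 57 (3.70%) opposite exons of Ufsp2. Ufsp2 stood at 30.7 to 37.2 TPM in Mock sgRNA and 46.2 to 53.3 TPM in SLC43A2 sgRNA, and Lrp2bp at no more than 0.14 TPM. Whether the libraries kept strand is uncertain, since the protocol that names the kit may not describe these samples; if they did not, reads of the shared stretches cannot be assigned.

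**Figure D4:**
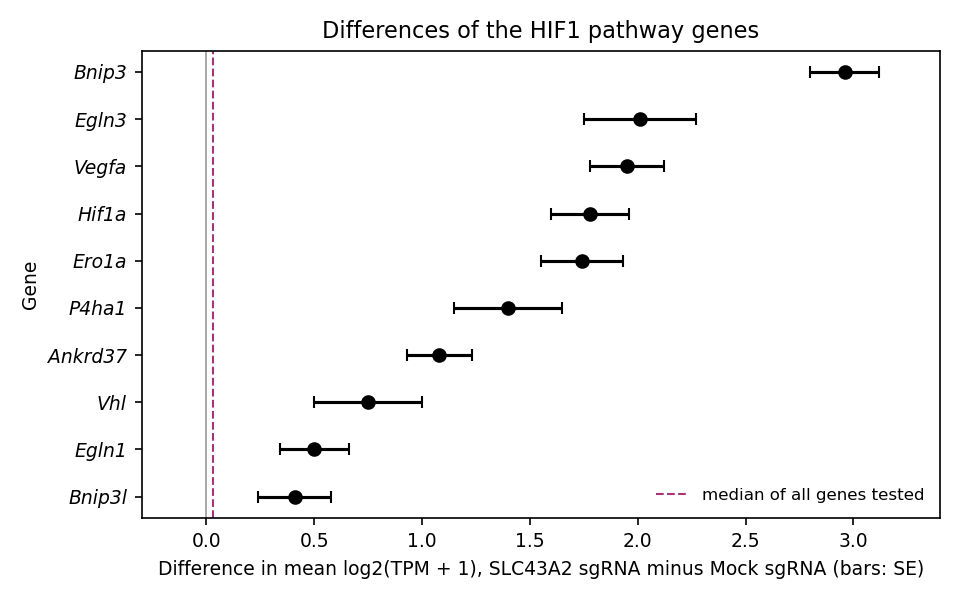
Differences in mean log2(TPM + 1) between SLC43A2 sgRNA and Mock sgRNA for the 10 genes (points; bars are the SE from limma, n = 3 each), with the median of all genes tested, 0.03, as a dashed line. The differences run from 0.41 for Bnip3l to 2.96 for Bnip3.

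Of 36 further textbook targets of HIF1 outside glycolysis and outside the 10 genes, 26 were tested; 12 rose, 1 fell and 13 did not pass, so that 46.2% rose against 22.8% of all genes tested (median log2 difference 0.62). The largest rise was that of Bhlhe40, a transcription factor gene also induced by T cell activation, from 24.4 ± 3.16 to 154 ± 34.2 TPM (log2 difference 2.60, SE 0.20, limma adjusted p = 1.7e-04). Ndrg1, a hypoxia-induced stress gene, rose from 4.31 ± 0.718 to 18.8 ± 5.68 TPM, and Mxi1, a MYC antagonist, from 6.44 ± 2.01 to 24.0 ± 5.43 TPM (limma adjusted p = 0.0017 and 0.0025). The other 9 that rose were Ak4, Ddit4, Fam162a, Higd1a, Gys1, Plod2, Tfrc, Gbe1 and Insig2, by 0.64 to 1.69. The call of Ddit4 was lost without Mock sgRNA replicate 2 or 3 or SLC43A2 sgRNA replicate 1 or 3. It was also lost with no filter on low values (limma adjusted p = 0.0679), and over all its alternatives the limma adjusted p ran from 0.0082 to 0.107. The call of Gbe1 was lost without SLC43A2 sgRNA replicate 3. The chemokine receptor gene Cxcr4 changed in the opposite direction, from 9.39 ± 0.294 to 4.89 ± 1.43 TPM (log2 difference -0.85, SE 0.21, limma adjusted p = 0.0163). That call was lost without Mock sgRNA replicate 1 (limma adjusted p = 0.0671) or 2 (limma adjusted p = 0.0569), and with scaling to T cell markers (limma adjusted p = 0.0553); over all its alternatives the adjusted p ran from 0.0064 to 0.0671.

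Several targets that are commonly used as hypoxia markers did not pass or were too low to test. Pdk1, the kinase that shuts pyruvate out of mitochondria, stood at 31.9, 24.0 and 28.4 TPM across Mock sgRNA, against 24.1, 17.9 and 37.5 TPM across SLC43A2 sgRNA (limma adjusted p = 0.7). Kdm3a, at 14.2 ± 2.50 and 18.5 TPM, and Pfkfb3, at 5.60 ± 1.06 and 7.69 TPM, did not pass (limma adjusted p = 0.138 and 0.0924). Car9 stayed under 0.7 TPM in every library. Adm, too low to be tested, stood at 0.53, 0.46 and 0.42 TPM across Mock sgRNA, against 1.40, 1.30 and 1.30 TPM across SLC43A2 sgRNA. Besides these genes, Arnt, Flt1, Kdr, Flt4, Sqstm1, Fundc1, Pink1, Ep300, Hif1an, P4hb, Pdia4 and the 9 smaller rises outside glycolysis were named after their values were seen. Others too low to test included Stc1, Stc2, Bhlhe41, Lox, Loxl2, Nos2 and Epo.

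The glycolytic targets of HIF1 on the list moved together: all 17 were tested and all 17 rose, against 22.8% of all genes tested, by 0.66 to 3.06 (median 1.63). With each library left out in turn, 15 to 17 passed. This list, like the other pathway lists, was chosen with earlier results of these data known, so its share is a description only. The count also rests on how the lists were divided, since Pfkfb3, which acts on glycolysis too, was listed outside it and did not pass. Slc16a3, the lactate exporter gene, rose from 5.37, 3.80 and 3.50 TPM across Mock sgRNA to 51.7, 22.8 and 63.1 TPM across SLC43A2 sgRNA (limma adjusted p = 0.0011), and Tpi1, a triose phosphate isomerase, rose by 2.15 and Pkm by 2.17. Glycolytic genes also respond to other regulators such as MYC. This list was then left out, with 3 genes that reached the level for testing through a single group (P4ha2, Gpx7 and Optn). Of the remaining 62 tested pathway genes, 22 rose (35.5%) and 6 fell. Their median log2 difference was 0.35, against 0.03 for all genes tested. Among all genes with a mean of at least 5 TPM the median was 0.19. The 22.8% and 0.03 include genes below that level. Neither this nor any other list was compared with genes of like abundance, so no excess over such genes is read from these shares.

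**Figure D5:**
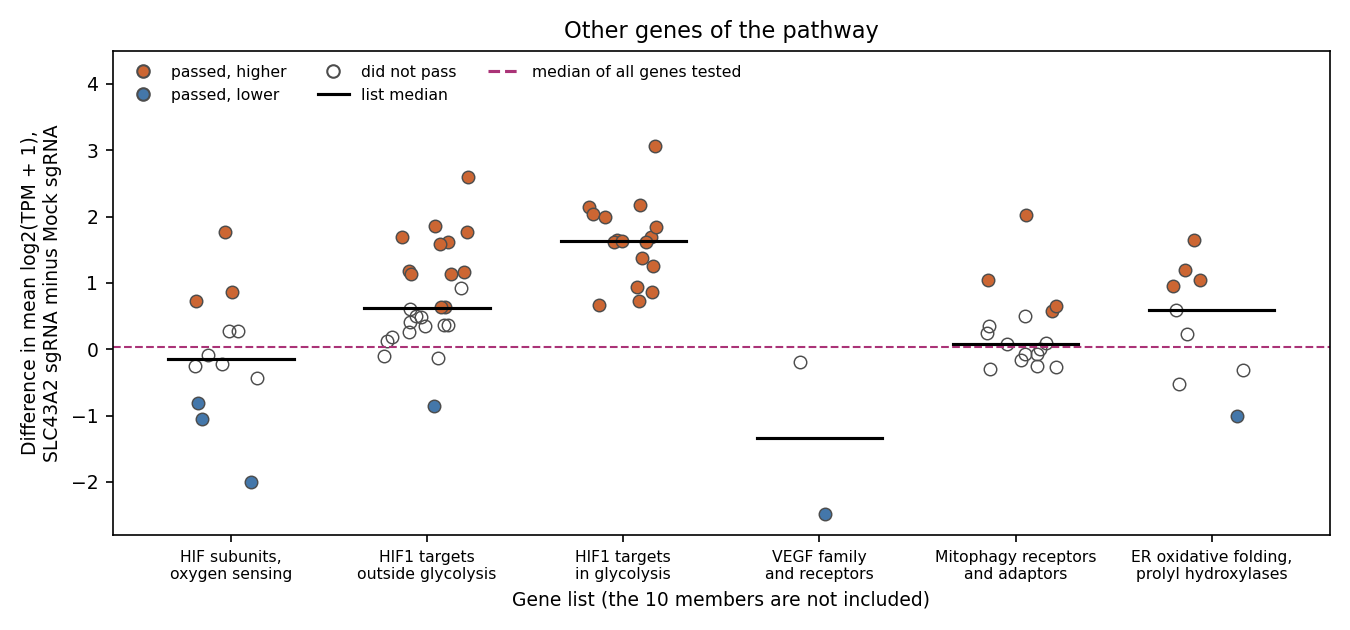
Differences in mean log2(TPM + 1), SLC43A2 sgRNA minus Mock sgRNA, of the tested genes in 6 lists of the pathway other than the 10 members, with filled points for genes that passed, black lines for list medians and a dashed line for the median of all genes tested. All 17 glycolytic targets passed as higher, whereas the oxygen sensing list has 3 higher and 3 lower genes.

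The labelled cell type was checked against markers. T cell markers were high in both groups, with a summed level of 5076 to 6316 TPM in Mock sgRNA and 4626 to 4831 TPM in SLC43A2 sgRNA. Of the 9, Cd3g and Cd8b1 fell, Cd2 rose and 6 did not pass (limma adjusted p = 0.0013, 0.0044 and 0.0389 for those that passed), so the scaling to their sum rests on genes that did not move alike. Markers of other blood cells were present in both groups and lower in SLC43A2 sgRNA. B cell markers summed to 287 to 369 and 23.7 to 24.7 TPM (6 of 6 tested of 7 fell), and neutrophil markers to 414 to 608 and 94.1 to 116 TPM (5 of 5 tested of 7 fell). NK cell markers summed to 232 to 300 and 96.0 to 101 TPM (6 of 6 fell). Most of the NK cell sum was Klrd1, at 206 ± 36.4 and 75.5 ± 1.83 TPM, so the sum rests largely on that gene. Hepatocyte and hepatoma markers summed to 17.8 to 36.4 and 4.67 to 6.16 TPM, with Alb, Apoc3, Hnf4a, Serpina1a and Ttr listed at 0 in all 6 libraries. Of the 2 that were tested, Trf fell from 21.8 ± 7.85 to 1.86 ± 0.157 TPM (limma adjusted p = 3.8e-04). The other, Afp, named after its values were seen, was present in all libraries. It stood at 5.50 ± 1.58 and 3.69 ± 0.961 TPM and did not pass (limma adjusted p = 0.161). Endothelial markers summed to 14.9 to 19.8 and 4.61 to 7.41 TPM, nearly all of it Pecam1, which leukocytes also express. No marker list of another cell type was higher in SLC43A2 sgRNA except that of fibroblasts, at no more than 0.270 TPM. The part of these shifts in the differences of the 10 genes was not tested; with libraries scaled to their T cell markers, the members' median log2 difference was 1.80, beside 0.23 for all genes.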

How the data were processed

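RNA-seq was measured in 6 libraries, 3 per group, grouped by the sample titles. The deposited values are TPM of the authors, with the same sum per library; depth and counting error are therefore unknown. The submitters' processing notes name Bowtie 0.12.2 and mm8 without their role; for the counter and annotation, sources used here give nothing. Per the labels' protocols the Illumina TruSeq RNA kit was used, in a text that speaks of retinas and may not describe these samples. Of the gene identifiers, 90.7% are in GENCODE M21 (GRCm38), from which coordinates and exon overlaps were taken; the table's own build is uncertain.

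Differences were fitted with limma 3.58.1 in R 4.3.3 (two-sided, eBayes with trend) on log2(TPM + 1) of the 13759 genes with a mean of at least 1 TPM. Benjamini-Hochberg adjustment covered all of them. The scale understates the change of low genes; folds are ratios of mean TPM. The 10 members, the pathway lists and the marker lists were chosen with earlier results of these data known. The text names from each list up to 3 largest rises and 2 largest falls that passed, and close relatives of members; other names are declared as chosen after seeing values. Alternatives covered pseudocounts, filters, scalings, variance models, library weights, the replicate number as a block, and each library left out in turn. Values of some listed genes are not reported here.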

Additional observations from a re-analysis of the deposited data

How the results depend on the processing

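The members' log2 differences kept their sign under all 17 alternatives, and 161 of 170 values moved by less than the spread between replicates. The others were Bnip3l with quantile normalization (0.11), Vegfa with a pseudocount of 0.1 (2.41) or 0.5 (2.18) and with quantile normalization (2.25), and, with scaling to T cell markers, which was chosen after seeing the data, Ankrd37 (1.32), Bnip3 (3.19), Bnip3l (0.66), Egln1 (0.74) and Vegfa (2.14). That scaling moved the median of all genes from 0.03 to 0.23. A lower pseudocount widens differences of low genes by construction; for the other changes the cause was not tested. Leaving out each library, Bnip3 ran from 2.86 to 3.10, Hif1a from 1.65 to 1.92, Egln3 from 1.73 to 2.19 and Vhl from 0.59 to 1.00. Counts of all genes ran from 1854 to 3183 higher and 2247 to 2868 lower, and those of other pathway genes from 33 to 45 higher and 4 to 7 lower, against 40 and 6. Among genes of at least 5 TPM, where fewer genes are tested, 1882 were lower, against 3060, and 60.6% of calls were higher. The signs of Egln2 (-0.23 to 0.03 leaving out each library, 0.14 with T cell scaling) and Vegfb (0.03 with T cell scaling) turned, as did those of Fundc1 (-0.10 with quantile normalization, -0.02 without antigen receptor, mitochondrial and hemoglobin genes) and Pdk1 (0.16 with array weights, 0.10 with T cell scaling, -0.41 to 0.10 leaving out each library); none of the 4 passed. Of 710 values of tested pathway genes named in the text, 27 lost their call and 7 gained it, the latter for Hif1an, Kdm3a, Pdia4 and Pfkfb3. Same-numbered replicates did not deviate together (r = 0.00106, 0.0606 and -0.0313 over genes), so the numbers were not taken as pairs; with the replicate block 40 other pathway genes were higher and 6 lower. Unknown depth limits statements on low genes such as Vegfa in Mock sgRNA.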
